A study of Drosophila melanogaster with 6 samples.

Results

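The genes described here are those whose RNA differed at least 2-fold between collections 1 and 3 of the control line, in a study of the Drosophila kinase gene sgg (shaggy, the fly glycogen synthase kinase 3). Counts were expressed as CPM (reads of a gene per 1000000 counted reads of its library). Of 17493 gene identifiers, 7440 had a mean of at least 10 CPM over the 3 control libraries. Of these, 129 had a ratio of collection 1 to collection 3 of at least 2 or at most 0.5. Collection 1 was the higher in 66 genes and the lower in 63, which is 0.887% and 0.847% of the 7440. The genes were thus chosen by the CPM of the control libraries, and the differences between control collections are given as a description, with no test.

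Both lines were homozygous stocks of Drosophila melanogaster engineered at sgg by CRISPR-Cas9. The control line, sggisoD-DS-SFS, had DsRed at the N-terminus of the protein, a StrepII-Flag-StrepII tag within it, and no other change. The mutant line, sggisoD-CI-DS-SFS, carried the same tags and changes at 2 consensus caspase recognition sites. Each line was 1 stock and gave 3 independent collections of whole embryos aged 10 to 15 h, and the labels describe the collections as matched for stage without giving the ages within a collection.

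The libraries held 12646077 to 19454630 counted reads, and control collection 1 was the shallowest. Pearson's r of log2 CPM across genes, which are not independent replicates, was 0.994 between control collections 2 and 3, and 0.987 and 0.981 between collection 1 and each of them. Control collection 1 stood apart from the other control libraries, and the mutant libraries correlated with each other at 0.990 to 0.994. The engineered gene sgg was at 287, 310 and 323 CPM in control collections 1, 2 and 3 and at 307, 294 and 304 CPM in mutant collections 1, 2 and 3. The lines differed in sgg by 0.02 on a log2 scale, with an SE (standard error) of 0.06 and an adjusted p of 0.871 by the edgeR quasi-likelihood test. At 10 CPM or more were 29 of 29 neuronal, 33 of 37 muscle, 11 of 13 glial and 10 of 11 tracheal marker genes. The shares were lower for hemocyte (17 of 24), salivary gland (8 of 14), fat body (7 of 15) and gut genes (19 of 59). None of 26 genes of the adult ovary, eggshell and larval fat body reached that level, and the highest value of any of them in any library was 7.19 CPM.

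In the later part of Drosophila embryogenesis the epidermis secretes the cuticle of the first larva, a layered matrix of chitin and proteins. The largest family of cuticle proteins, named Cpr, Lcp or Ccp, carries the chitin-binding Rebers and Riddiford domain, and Tweedle (Twdl) proteins form another family of this matrix. Early development, by contrast, runs on RNA that the mother loads into the egg, most of which is degraded when the embryo starts to transcribe its own genome, while some persists in the germ cells.

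Both directions held cuticle genes, and RNAs of the egg and the early embryo were found among the members lower in collection 1. Of 125 cuticle protein genes in the count table, 56 were at 10 CPM or more and 22 were members, 11 in each direction. The list takes Tweedle genes by the Twdl symbol and so leaves out Tb (Tubby), a Tweedle gene lower in collection 1, which the cuticle counts do not include. The germ cell list contributed 3 of its 8 genes at that level, all lower in collection 1, and the digestive enzyme and gut list 3 of 19, all higher. The lists for early patterning and cellularisation, cell cycle, zona pellucida matrix and immune peptides contributed 1 gene each. No member came from the lists for Osiris genes, chitin enzymes, tanning, denticles, muscle, neurons, glia, hemocytes, fat body, trachea, salivary gland, heat shock, ecdysone response, the mitochondrial genome or histones.

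**Figure D1:**
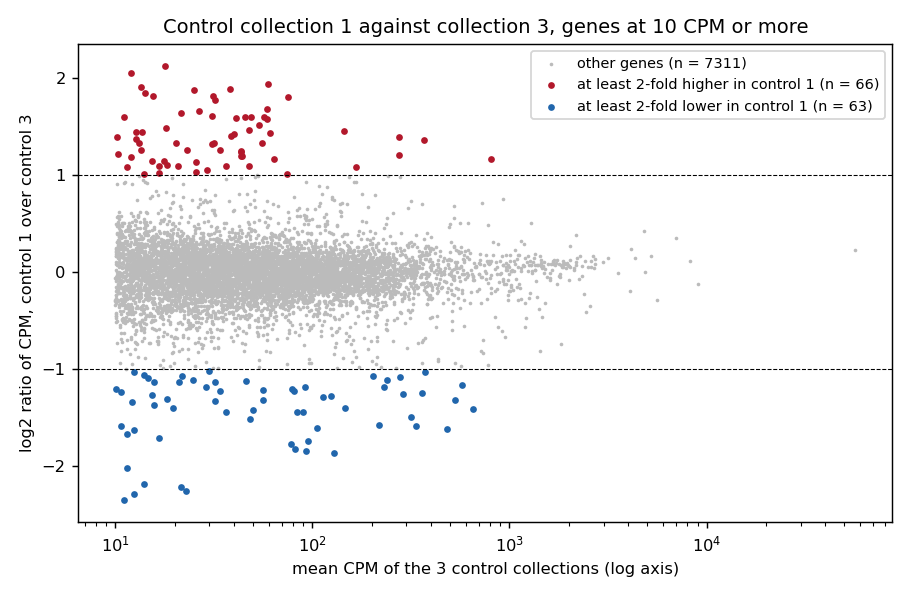
Log2 ratio of CPM in control collection 1 over collection 3 against mean control CPM (log axis), one point per gene for the 7440 genes at 10 CPM or more. The 66 red and 63 blue points lie outside the dashed lines at a 2-fold ratio, with single genes from 4.36-fold higher to 5.11-fold lower in collection 1.

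The fewest reads of any member in a control library were 55, and the exact 95% binomial interval of the ratio lay wholly beyond the threshold in 94 of the 129 genes. Since the ratio chose the genes, this describes its precision and supports no difference. Other effects of the lower depth of collection 1 were not tested. These intervals cover counting error only, since reads without molecular identifiers include PCR copies. Just inside the upper threshold were CG10598 (ratio 2.01) and Fst (2.01), the cold-inducible gene Frost, and just outside it Lcp65Ae (1.99) and Ccp84Ab (1.98). At the lower threshold TwdlE (0.491) and Cpr51A (0.490) were just inside, and spd-2 and CG2150 (both 0.502) just outside.

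The control collections did not differ equally. The same 2-fold rule applied to collections 1 and 2 gave 83 genes, of which 71 were among the 129 in the same direction, and applied to collections 2 and 3 it gave 8. Collection 2 lay between them in 64 of the 66 genes higher in collection 1, and in 44 of the 63 lower genes, with 19 of the latter highest in collection 2. The gap between collections 1 and 3 that chose the genes leaves room for collection 2 to lie between them, so these counts are not set against other genes. On a log scale running from 0 at collection 3 to 1 at collection 1, the median place of collection 2 was 0.429 in the higher genes and 0.102 in the lower genes. Collection 2 was nearer to collection 3 in 42 of the 66 higher and 60 of the 63 lower genes. Single genes departed from their set's median, with CG7465 at 0.102 among the higher genes and TwdlU (0.919), Cyp6a8 (0.732) and yl (0.640) among the lower, where collection 2 was nearer to collection 1. Among mutant collections, 21, 2 and 12 genes of the 7440 were 2-fold apart in the pairs 1 and 2, 1 and 3, and 2 and 3.

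**Figure D2:**
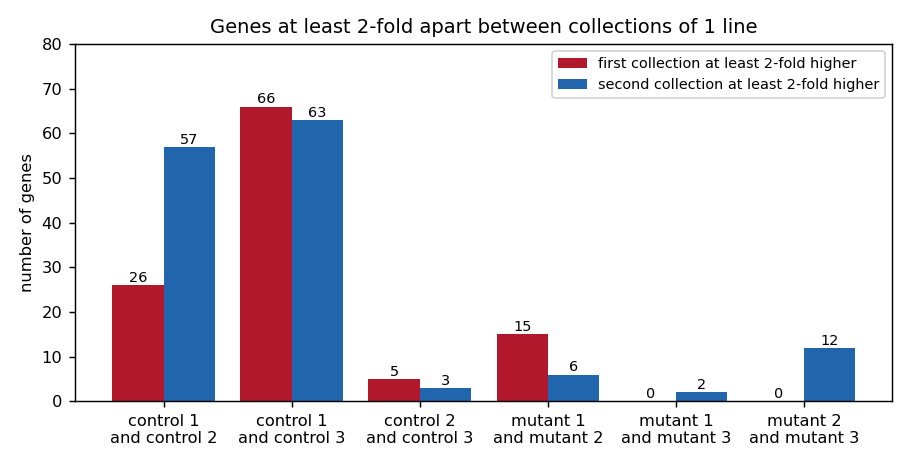
Number of genes, of 7440 at 10 CPM or more in the control line, that differ at least 2-fold in CPM between 2 collections of 1 line, with red bars for genes higher in the first named collection and blue bars for genes higher in the second. The pairs with control collection 1 give 83 and 129 genes, and the other pairs 2 to 21.

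Among the genes higher in control collection 1, the 8 with the largest ratio were CG14265, CG33110, CG7465, CG14565, CG4229, CG14568, CG4962 and the mucin gene Muc55B. CG14265 (FBgn0040393) was at 33.0, 13.1 and 7.56 CPM in control collections 1, 2 and 3 and at 33.7, 28.4 and 34.4 CPM in mutant collections 1, 2 and 3. The mutant collections lay at the level of control collection 1, above the other controls. CG7465 (FBgn0035551) had the same form, with 114.7, 34.3 and 29.9 CPM in the controls and 90.0, 85.9 and 114.9 CPM in the mutants. In Muc55B (FBgn0034294) the controls were at 26.3, 13.2 and 7.45 CPM and the mutants at 42.0, 31.5 and 33.3 CPM, so the mutant collections lay above all controls. The ratios of the 8 genes ran from 3.52 to 4.36.

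The 11 cuticle protein genes higher in control collection 1 were Cpr47Eg, Cpr11A, Ccp84Ae, Lcp65Ac, Lcp65Ag3, Lcp65Af, Cpr78Cb, Cpr78Cc, Cpr31A, TwdlN and TwdlP. In each of these 11 genes the order was control collection 3, then 2, then 1, then all mutant collections, with mutant collection 1 the highest. Over the 7440 genes, all mutant values lay above all control values in 17.4%. TwdlN (FBgn0039441) was at 556, 330.0 and 216 CPM in control collections 1, 2 and 3 and at 1121, 688 and 799 CPM in mutant collections 1, 2 and 3. Cpr47Eg (FBgn0086519), with the largest ratio of the 11 at 3.50, was at 129.8, 58.8 and 37.1 CPM in the controls and 232, 158 and 179 CPM in the mutants. Lcp65Ag3 (FBgn0086611) was at 226, 165 and 107 CPM in the controls and 441, 314 and 362 CPM in the mutants. It belongs to a run of near-identical tandem copies, Lcp65Ag1, Lcp65Ag2 and Lcp65Ag3, between which reads may have been split, so its own level is uncertain.

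Of 19 gut list genes at 10 CPM or more, 12 were higher and 7 lower in control collection 1 than in collection 3. Their median ratio was 1.03. The 3 gut members were serine protease genes of the trypsin and chymotrypsin class. Jon65Aiv (FBgn0250815), a gene of the Jonah protease family, was at 29.3, 19.7 and 11.7 CPM in control collections 1, 2 and 3 and at 72.2, 43.5 and 64.5 CPM in the mutant collections. Its neighbour yip7 was at 24.6, 17.1 and 11.1 CPM in the controls and 46.8, 26.4 and 36.2 CPM in the mutants. The trypsin-like gene zetaTry was at 16.0, 13.1 and 7.0 CPM in the controls and 33.8, 21.7 and 28.5 CPM in the mutants. All 3 kept the order seen for the cuticle genes, with control collection 1 the highest control and every mutant collection above it. The immune peptide gene IM33, at 28.2, 21.1 and 13.2 CPM in the controls and 51.7, 43.3 and 52.0 CPM in the mutants, also had the mutant collections above all controls.

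Not every gene of this direction was higher in the mutant line. CG9184 (FBgn0035208) was at 1154, 747 and 517 CPM in control collections 1, 2 and 3 and at 429, 184 and 298 CPM in mutant collections 1, 2 and 3. CG10591 (FBgn0035621) was at 418, 248 and 159 CPM in the controls and 143, 46.0 and 94.98 CPM in the mutants, and CG13362 was at 65.9, 46.6 and 30.9 against 25.7, 13.7 and 14.3 CPM. All mutant collections of these genes lay under the lowest control. With CG31300 they made up the 4 of 129 members whose mutant values all lay under the control values, against 30.2% of the 7440 genes.

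**Figure D3:**
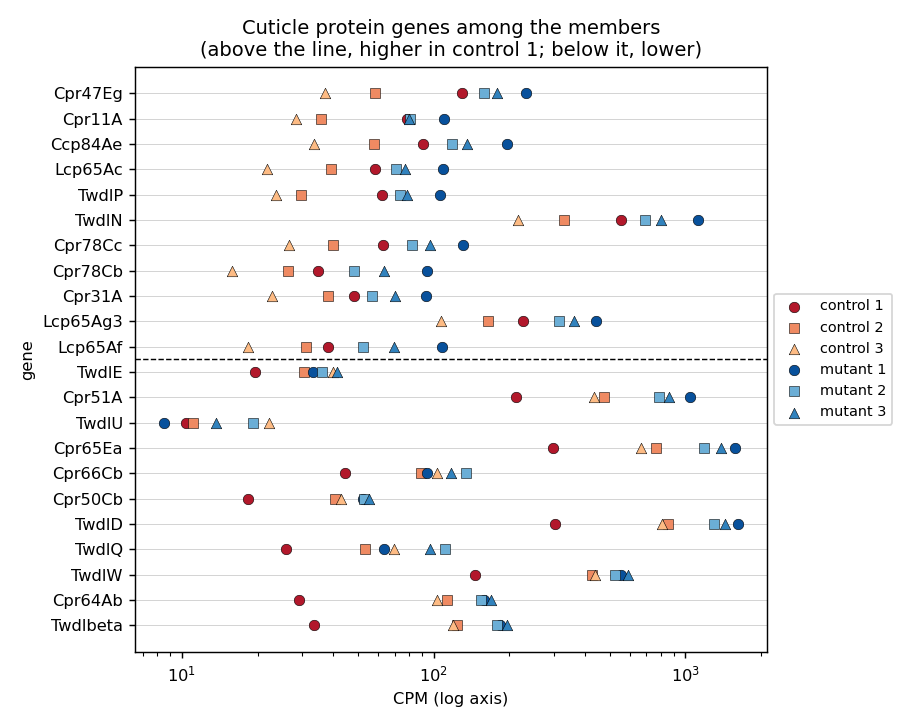
CPM (log axis) of the 22 members on the cuticle protein list, one row per gene and one symbol per collection, with control collections in red to orange and mutant collections in blue. Above the dashed line the controls are graded with collection 1 the highest control, below it collection 1 is the lowest control, and the mutant mean lies above the control mean in 21 of the 22 rows, TwdlU being the exception.

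The 63 genes lower in control collection 1 included 11 genes of the cuticle protein list, Twdlbeta, TwdlD, TwdlE, TwdlQ, TwdlU, TwdlW, Cpr50Cb, Cpr51A, Cpr64Ab, Cpr65Ea and Cpr66Cb. TwdlD (FBgn0039444) was at 303, 854 and 808 CPM in control collections 1, 2 and 3 and at 1618, 1302 and 1441 CPM in mutant collections 1, 2 and 3. Cpr65Ea (FBgn0035735) was at 297, 766 and 668 CPM in the controls and 1569.9, 1186 and 1384 CPM in the mutants. Twdlbeta (FBgn0033658) was at 33.4, 124 and 119.9 CPM in the controls and 184, 178 and 196 CPM in the mutants. In these genes collection 1 was low, collections 2 and 3 were close together, and the mutant collections lay above both. In 7 of the 11 genes all mutant values lay above all control values, against 17.4% of the 7440 genes. This was also so for Tb, at 39.6, 113 and 133 CPM in the controls and 155, 189 and 182 CPM in the mutants. TwdlU, the member not annotated as protein-coding, went another way, with 10.4, 11.1 and 22.3 CPM in the controls and 8.51, 19.2 and 13.6 CPM in the mutants.

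The cuticle families were therefore split within themselves. Over the 56 cuticle protein genes at 10 CPM or more, 25 were higher and 31 lower in control collection 1 than in collection 3, with ratios from 0.278 to 3.50. The summed CPM of all 125 genes of the list was 8484, 11347 and 10988 in control collections 1, 2 and 3 and 21630, 17998 and 18919 in mutant collections 1, 2 and 3. Of the 13 zona pellucida matrix genes, all at 10 CPM or more, 9 were higher and 4 lower in control collection 1 than in collection 3, with a median ratio of 1.28. The member among them, zye, was at 41.9, 95.7 and 114 CPM in the controls and 176, 151 and 170.5 CPM in the mutants. It was low in control collection 1, and every mutant collection lay above every control.

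The lower genes with the most extreme ratios were Cyp6a8, Pxt, CG14327, Marf1, osk, BigH1, drd and Twdlbeta. CG14327 was at 5.85, 35.0 and 28.0 CPM in control collections 1, 2 and 3 and at 66.7, 43.5 and 53.9 CPM in the mutants, and drd was at 50.5, 150.4 and 183 CPM in the controls and 189.6, 221 and 228 CPM in the mutants. In both, every mutant collection was above every control. The cytochrome P450 gene Cyp6a8 was at 4.35, 6.73 and 22.2 CPM in the controls and 9.43, 6.78 and 17.6 CPM in the mutants, where control collection 3 was the high one. CG15740 was at 306, 519 and 767 CPM in the controls, and its mutant values of 456, 736 and 646 CPM lay within that range.

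RNAs with known roles in the egg, the germ line or the first divisions formed another group among the lower genes. They were gathered after the values were seen and number 16. They were osk (oskar, which assembles germ plasm), swa (swallow, which localises bicoid RNA), tor (the Torso receptor of the embryo's ends), yl (the yolk receptor), wisp (the poly(A) polymerase of the activated egg), Pxt (a cyclooxygenase-like peroxidase of the ovary), Marf1 (a regulator of oocyte RNA), BigH1 (the early embryonic linker histone), Jabba (which anchors histones on lipid droplets), slam and dah (both of cellularisation), AGO3 and spn-E (both of the piRNA pathway that silences transposons) and polo, gwl and bora (mitotic regulators). Their ratios of collection 1 to collection 3 ran from 0.205 to 0.463.

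Oskar RNA (osk, FBgn0003015) was at 5.06, 13.9 and 23.0 CPM in control collections 1, 2 and 3 and at 9.30, 4.54 and 15.0 CPM in mutant collections 1, 2 and 3. Its exons overlap those of lncRNA:osk and an antisense RNA, so its reads may be shared. Pxt was at 4.35, 11.8 and 21.2 CPM in the controls and 8.31, 4.35 and 11.6 CPM in the mutants, and AGO3 was at 8.70, 27.3 and 23.0 against 29.4, 19.2 and 16.3 CPM. The mitotic kinase gene polo was at 29.5, 70.4 and 68.8 CPM in the controls and 72.6, 45.6 and 52.2 CPM in the mutants. The lines overlapped in each of the 16 genes, and the mutant mean was above the control mean in 8 and below it in 8. Of the 7440 genes, 17.4% had all mutant values above all control values and 30.2% had them all below. The 16 genes come from members chosen for a gap of at least 2-fold between control collections. Such a gap leaves room for overlap, so the overlap is a description and the shares are not directly comparable.

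**Figure D4:**
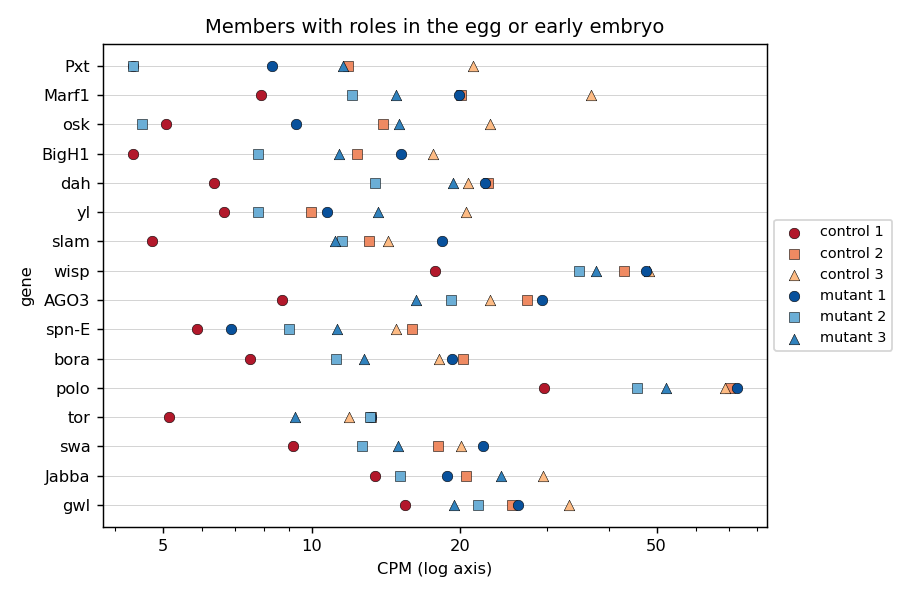
CPM (log axis) of the 16 members with known roles in the egg or early embryo, one row per gene and one symbol per collection. Control collection 1 is the lowest control in every row, and mutant and control values overlap in every row.

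The wider lists gave context for this group. Of the 14 germ cell genes, 13 were lower in control collection 1 than in collection 3, with tud the exception at a ratio of 1.03. Of these 14 genes, 8 were at 10 CPM or more, and 7 of the 8 were lower, with the members osk, spn-E and AGO3 among them. Of 32 cell cycle genes at 10 CPM or more, 24 were lower, with a median ratio of 0.854, and polo was the member. Of 14 early patterning and cellularisation genes at that level, 5 were lower and 9 higher, with a median of 1.10, and slam was the member. The summed CPM of the 26 ovary, eggshell and larval genes was 13.996, 10.7 and 13.6 in control collections 1, 2 and 3 and 26.3, 20.4 and 22.3 in the mutants. In whole embryos, fewer cells of a type and less RNA per cell cannot be told apart.

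The mutant collections were not used to choose the genes, and they were read next. Over the 66 genes higher in control collection 1, the median log2 CPM relative to the control mean was 1.44, 0.96 and 1.19 in mutant collections 1, 2 and 3, against 0.71, -0.06 and -0.66 in control collections 1, 2 and 3. For the 47 lower genes outside the egg and early embryo group it was 0.73, 0.90 and 0.86 in the mutants and -0.83, 0.37 and 0.51 in the controls. The 16 egg and early embryo genes were at 0.47, -0.27 and 0.09 in the mutants and -0.92, 0.35 and 0.53 in the controls. The median over all 7440 genes lay between -0.07 and 0.01 in each library.

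**Figure D5:**
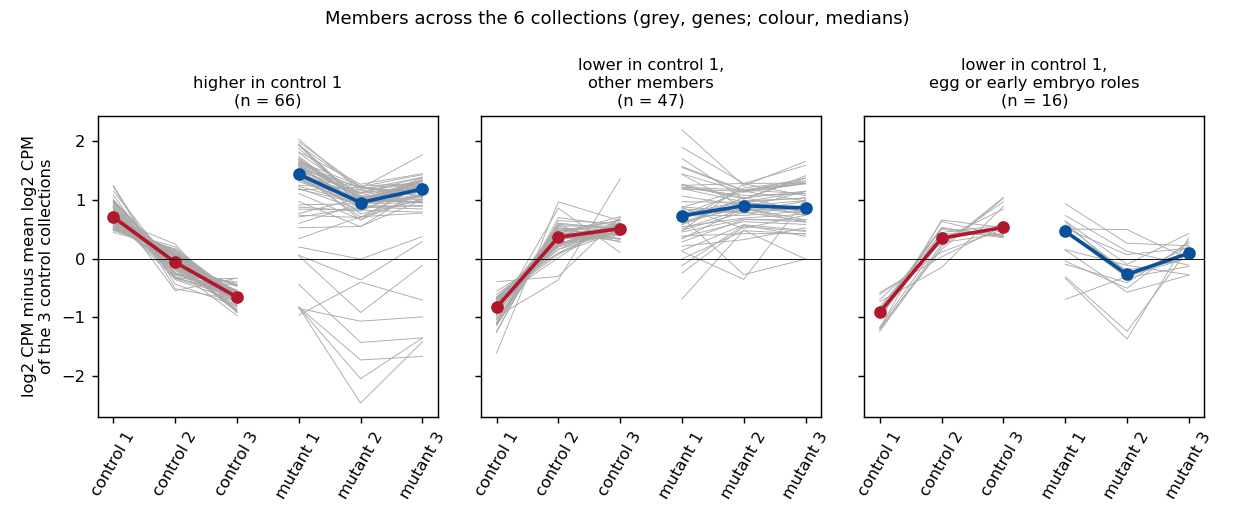
Log2 CPM of each member minus its mean over the control collections, for the 66 genes higher in control collection 1, the 47 other lower genes and the 16 lower genes of the egg or early embryo. Grey lines join the values of one gene and coloured points give the median per collection, without implying an order of collections. The mutant medians lie at 0.73 or more in the first and second sets and between -0.27 and 0.47 in the third.

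In 75 of the 129 genes all mutant values lay above all control values, 42 among the higher and 33 among the lower genes. In 4 they all lay below. Over the 7440 genes these shares were 17.4% and 30.2%. The mutant mean was above the control mean in 112 of 129 members and in 37.4% of the 7440. These shares, here and above, rest on CPM over library totals, without the scaling of the edgeR test below. Over the 7440 genes the median log2 ratio of mutant to control mean was -0.07. The scaling factors of that test were 1.01 to 1.03 in the controls and 0.972 to 0.994 in the mutants. How far scaling moves these shares was not tested. In 18 members all mutant values fell within the range spanned by control collections 1 and 3. The rule set that range at 2-fold or more, so this count is a description and is not set against other genes.

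The mutant collections also differed among themselves in some members. At least a 2-fold range among mutant collections was seen in 7 of 129 members, against 0.376% of the 7440 genes. They were osk (3.31-fold), CG10591 (3.11-fold), Pxt (2.66-fold), Cyp6a8 (2.60-fold), CG9184 (2.33-fold), TwdlU (2.25-fold) and Lcp65Af (2.06-fold). In 6 of the 7 mutant collection 2 was the lowest, and in TwdlU it was the highest. The median range was 1.41-fold over the members and 1.13-fold over the 7440 genes. Mutant collection 1 was the highest in 71.2% of the 66 genes higher in control collection 1 and in 38.1% of the 63 lower genes, against 39.6% of the 7440. Mutant collection 2 was the lowest in 77.3% and 49.2%, against 42.2%. No chance test was made of these shares.

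The lines were compared by edgeR's quasi-likelihood test, fitted to all 10526 genes that passed its expression filter and adjusted over all of them. All 129 members passed this filter. The test called 53 members at an adjusted p under 0.05, of which 49 rose and 4 fell in the mutant line. Of all tested genes it called 22.3%, of which 13.7% rose and 8.67% fell as shares of those tested, and of the 7440 it called 24.3%, where 13.4% rose and 11.0% fell. Of the 66 genes higher in control collection 1, 36 rose and 4 fell. Of the 63 lower genes 13 rose, none of them of the egg and early embryo group, where 0 of 16 genes had an unadjusted p under 0.05. The choice of genes by a wide spread among control collections enters this test, so the counts are a description.

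Among cuticle proteins, 10 of the 11 genes higher in control collection 1 and 3 of the 11 lower genes rose. The 10 became 3 without control collection 2 or without mutant collection 1, and 4 without mutant collection 3. The 3 became 7 without control collection 1, 2 without mutant collection 2, and 1 without mutant collection 1 or 3. In these fits 12.1% to 20.0% of all tested genes were called, against 22.3% with all libraries. TwdlN rose from 367 ± 173 to 869 ± 225 CPM (mean ± SD, n = 3), by 1.28 in log2 terms with an SE of 0.32 and an edgeR adjusted p of 0.0226. TwdlD rose from 655 ± 305 to 1453 ± 158 CPM, by 1.19 (SE 0.32, edgeR adjusted p 0.0297). Cpr51A rose by 1.31 (SE 0.26, edgeR adjusted p 0.00937) and Cpr65Ea by 1.30 (SE 0.29, edgeR adjusted p 0.0157). Cpr11A, the gene of the first 11 that was not called, differed by 0.97 with an edgeR adjusted p of 0.0700. Twdlbeta, with all mutant values above all controls, differed by 1.05 (SE 0.38) and did not pass, at an edgeR adjusted p of 0.0829.

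The largest rises among the members were in Jon65Aiv, CG13239 and CG32214. Jon65Aiv rose from 20.2 ± 8.84 to 60.1 ± 14.8 CPM (mean ± SD of 3 collections), or by 1.62 (SE 0.30, edgeR adjusted p 0.00712). CG13239, at 9.81, 34.7 and 20.6 CPM in the controls and 87.7, 45.3 and 60.4 CPM in the mutants, rose by 1.58 (SE 0.38, edgeR adjusted p 0.0209), and CG32214 rose by 1.56 (SE 0.28, edgeR adjusted p 0.00664). The other gut members zetaTry and yip7 rose by 1.27 and 1.10, so all 3 gut members were called. Of these, 1 was called without mutant collection 1, and 2 without control collection 2, control collection 3 or mutant collection 3. The share of all tested genes called in these fits was 12.1% to 17.7%, against 22.3% with all libraries. IM33 rose by 1.29 with the smallest p of the members, an edgeR adjusted p of 0.00617. The largest falls were those of CG10591, by 1.50 (SE 0.43, edgeR adjusted p 0.0361), of CG9184, by 1.37 (SE 0.34, edgeR adjusted p 0.0224), and of CG13362, by 1.37 (SE 0.31, edgeR adjusted p 0.0160). No member was called lower without mutant collection 2 or without mutant collection 3, where 16.4% and 12.1% of all tested genes were called. The calls of these falls thus changed with the library left out. In all 3 genes every mutant value lay under every control value.

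The number of called members changed with the library left out, as did the share of all tested genes called. It was 91 (70.5% of members) without control collection 1, where 20.0% of all tested genes were called, and 25 (19.4%, against 14.003%) without control collection 2. It was 49 (38.0%, against 17.7%) without control collection 3 and 37 (28.7%, against 16.4%) without mutant collection 2. It was 17 (13.2%) without mutant collection 1 and also 17 without mutant collection 3, where 13.03% and 12.14% of all tested genes were called, so the members' share was then near that of all genes. Without control collection 1, 58 of the 66 and 29 of the 63 genes rose and 3 and 1 fell, and spn-E was the gene of the 63 that fell. Control collection 1 helped to choose the members, so leaving it out removes spread that the rule selected. The counts without it are a description. In the authors' deposited table of the same comparison, 65 members were higher and 4 lower in the mutant line at an adjusted p under 0.05, against 1469 and 907 of its 10526 genes.

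The genes higher in control collection 1 were often neighbours. Positions are those of an Ensembl annotation of the BDGP6 assembly, matched by gene identifier, since the build used for counting is not given in the sources used here. Of the 66 genes, 29 lay within 20 kb of the next gene of the same direction and formed 10 groups, and 43.9% had another such gene within 20 kb, against 3.01% of the 7440 genes. For the 63 lower genes these shares were 12.7% and 3.53%. Chromosome arm 3L held 33 of the 66 genes, or 50%, against 19.9% of the 7440.

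One group of 5 lay on 3L at 16264713 to 16273608, where CG13051, CG13069, CG13068, CG13067 and CG13066 were the only genes at 10 CPM or more and all 5 were members of this direction. A few kilobases further, at 16281132 to 16283921, CG13049 and CG13048 were members of the opposite direction. On the same arm, 5 of the 6 genes of that level between 21729675 and 21744269 were members (CG14570, CG14569, CG14568, CG14573 and CG14565), and CG14567 was not. The Lcp65A cluster, at 6130386 to 6145393, held 3 members (Lcp65Ag3, Lcp65Af and Lcp65Ac) among 7 genes of that level. In the Tweedle cluster of 3R both directions stood close together, with TwdlP and TwdlN (26620608 to 26632956) higher and TwdlD and Tb (26640025 to 26657531) lower in control collection 1.

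Genes higher in control collection 1 were short. Their median exonic length was 904 bp, against 2450 bp over the 7370 of the 7440 genes with an annotated length, and 37 of the 66 had under 1 kb of exon, or 56.1%, against 11.1%. The lower genes outside the egg and early embryo group had a median of 1429 bp and those of that group 3040 bp. Exons of 21 members overlap a gene on the opposite strand and those of 6 a feature on the same strand. Since the strand setting of the counting is not given in the sources used here, reads of such pairs may be shared.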

How the data were processed

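RNA from whole embryos was sequenced in 6 libraries, 3 collections per line. Per the labels' protocols, poly(A) RNA was made into strand-preserving libraries, amplified by PCR and read single-end. The submitters' processing notes name TopHat2 2.1.1, Bowtie2 2.3.4.0, edgeR 3.14.0 and limma 3.28.21, without roles. The genome build and the counting tool are not given in the sources used here. The authors deposited raw read counts per gene for all 17493 identifiers, of which 17362 were named from the reference table. Per the file headers, a second deposited table repeats the counts of 10526 genes and adds the authors' log2 CPM, log2 fold changes (control against mutant), test scores (t and B) and p-values, raw and adjusted. The repeated counts were checked and were equal in all 6 libraries. In that table the sign was turned so that positive means higher in the mutant line.

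CPM here is the count over the library total, per 1000000 reads. Members were chosen on control collections 1 and 3 (ratio at least 2 or at most 0.5, mean control CPM at least 10). Intervals of ratios are exact Clopper-Pearson intervals at 95%. The line comparison used edgeR 4.0.16 in R 4.3.3 (filterByExpr, TMM scaling, glmQLFit and glmQLFTest, two-sided, Benjamini-Hochberg over all tested genes, threshold 0.05). Standard errors are the log2 difference over the square root of F. The code was tested on simulated counts. Nothing says that equal replicate numbers mark shared collections, so the number was a block only as an alternative. Each line is 1 stock, so p-values measure the spread between collections and stocks cannot be told apart from the mutated sites.

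The members, the gene lists and the tests were chosen with earlier results of these data known. The egg and early embryo group was gathered after its values were seen and was given no test of its own. Genes named are sgg, the 8 highest and 8 lowest ratios, the 3 highest mean CPM per direction, the 3 largest rises, falls and mutant ranges, up to 4 members per list, and the genes at the thresholds. Others were named in lists, families or genomic groups after their values were seen. Alternatives were other scalings, filters, thresholds and pairs of collections, DESeq2 1.42.0, limma-voom with limma 3.58.1, the block, and each library left out in turn.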

Additional observations from a re-analysis of the deposited data

How the results depend on the processing

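The members depended on the thresholds. A ratio of 1.5 gave 403 genes (169 higher and 234 lower in the first collection), a ratio of 3 gave 38 (20 and 18), collections 1 and 2 gave 83 (26 and 57), and collections 2 and 3 gave 8 (5 and 3). TMM, DESeq2 and upper-quartile scaling of the libraries kept 126, 128 and 127 of the 129. With one mutant collection left out, 0 to 5 members had a 2-fold range in the others.

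Leaving out one library gave 1295 to 2146 called genes (838 to 1415 higher and 457 to 738 lower in the mutant line) and 17 to 91 called members (14 to 87 higher, 0 to 5 lower). Among genes higher in control collection 1 the range was 16 to 61 (13 to 58 higher, 0 to 5 lower), and among those lower in it 1 to 30 (1 to 29 higher, 0 to 1 lower). These are edgeR calls at an adjusted p under 0.05. Leaving out a library leaves fewer samples, and the cause of the wide range was not tested.

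With the replicate number as a block, 80 members were called (75 higher), against 18.9% of all tested genes. Of the 80, 28 were lower in control collection 1 and all 28 were higher in the mutant line, and 53 of the 80 were the members called without it. Same-numbered collections had deviation correlations of 0.00531, -0.0755 and 0.0862. With 3 collections per line these values cannot tell whether the numbers pair the collections.

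Some differences changed sign. These were not only ones near 0, since with all libraries osk was at -0.52 and Marf1 at -0.44. With upper-quartile scaling and with library size alone, the log2 difference was -0.0039 and -0.024 for sgg and -0.0067 and -0.0258 for BigH1. With each library left out in turn it ran from -0.026 to 0.0402 for sgg, -0.4423 to 1.0213 for Cyp6a8, -0.8162 to 0.1459 for Marf1, -1.0096 to 0.0019 for osk, -0.3434 to 0.4323 for BigH1, -0.0209 to 0.5934 for CG15740, -0.1797 to 0.4521 for AGO3 and -0.2506 to 0.2269 for polo. Of 616 estimates for 44 named genes, 536 kept their direction and their side of the threshold. What size of difference 3 collections per line can detect was not measured for these genes.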
